A study of Homo sapiens with 8 samples.

Results

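Long intergenic noncoding RNAs (lincRNAs) are transcripts of genes that lie between protein-coding genes and carry no annotated coding sequence. The lincRNAs described here were all genes of type lincRNA in GENCODE release 29 that lie on autosomes and had at least 5 CPM (counts per mega-count of all genes of a library) in each of the 4 input libraries. Symbols starting with SNHG, and GAS5, NEAT1, MALAT1, NORAD and MIR22HG, were left out. This left 96 of the 7238 autosomal lincRNA genes in the files, which list 58395 genes in all. Of the 103 that met the minimum, 7 carried an excluded name, 4 of them hosts of small nucleolar RNAs (SNHG8, SNHG15, SNHG19 and SNHG30), the others NEAT1, MALAT1 and NORAD. The 96 were thus chosen by their annotation and their input level, and ranked by the log2 ratio of polysome over input CPM in each lysate. Input level and ratio are given as descriptions, with no test.

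RNA came from OCI-AML3, an established human acute myeloid leukaemia cell line. The labels describe infection with a short hairpin against FBL, which encodes the nucleolar methyltransferase fibrillarin, or a control hairpin. Cells were held in cycloheximide (100 µg/mL, 15 min), which stalls ribosomes on RNA. Part of each cleared lysate was kept as input and part was spun through a 10% to 50% sucrose gradient, giving 4 groups of 2 libraries: FBL knockdown polysome, control (genotype label WT) polysome, FBL knockdown input and control input. Of the 14 fractions, those joined as polysome RNA were not given in the sources used here. No source says whether the lysates of a label were grown or infected separately, so all spreads may be partly technical. Lysates are called knockdown 1, knockdown 2, control 1 and control 2 after the sample titles, and values below follow that order. FBL itself did not follow the label. It stood at 499 and 165 CPM after TMM scaling in labelled knockdown polysomes and 498 and 163 CPM in labelled control polysomes, and at 253 and 84.2 CPM in labelled knockdown inputs and 250.0 and 88.1 CPM in labelled control inputs. It went instead with the library number, with both libraries numbered 1 above both numbered 2 in either fraction. No label ties the number to a treatment. Every statement on knockdown and control is about the labels only. Gene counts were lowest in polysome knockdown 2, at 22.2 M (mega-counts), and highest in input knockdown 2, at 43.1 M. Of 12 myeloid marker genes, 11 reached 1 CPM in every input library (MPO, at 0.874 to 2.32 CPM, did not), and 0 of 11 markers of other cell types did. Some of the latter passed 1 CPM in single inputs, with ITGA2B (megakaryocyte) at 0.683 to 3.22 CPM and COL1A1 (fibroblast) at 0 to 1.53 CPM.

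A lincRNA in the heavy part of a sucrose gradient sediments with polysomes, the strings of ribosomes that form on a translated RNA. Many cytoplasmic lincRNAs are known to meet ribosomes, some on short open reading frames, whereas others are held in the nucleus or on chromatin and enter polysomes little. Sedimentation does not show translation, since other large particles settle in the same fractions. "Ribosome-associated" is used below for a high share of reads in polysome RNA relative to input, and translation itself was not tested.

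Some of the members whose position in the ranking the results turn on are shown first through their longest run from a start codon to an in-frame stop codon. All GENCODE v29 transcripts of each gene on GRCh38 were searched by a script and the longest run was kept. The start and stop codons are in capitals. These runs are not annotated coding sequences. The first 3 belong to lincRNAs with a high share on polysomes: AP001505.1 (chr21:44978860-44978982 (+)), LINC01963 (chr2:216218828-216219124 (+)) and LRRC8D-DT (chr1:89820457-89820678 (-)).
AP001505.1: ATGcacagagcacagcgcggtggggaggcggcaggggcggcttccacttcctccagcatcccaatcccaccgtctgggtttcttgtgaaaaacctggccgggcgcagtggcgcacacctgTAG
LINC01963: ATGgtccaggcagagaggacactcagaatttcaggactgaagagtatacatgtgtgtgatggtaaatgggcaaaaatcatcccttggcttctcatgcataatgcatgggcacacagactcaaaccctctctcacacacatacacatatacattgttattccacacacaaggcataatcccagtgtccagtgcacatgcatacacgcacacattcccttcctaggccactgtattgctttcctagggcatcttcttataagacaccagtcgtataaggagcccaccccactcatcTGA
LRRC8D-DT: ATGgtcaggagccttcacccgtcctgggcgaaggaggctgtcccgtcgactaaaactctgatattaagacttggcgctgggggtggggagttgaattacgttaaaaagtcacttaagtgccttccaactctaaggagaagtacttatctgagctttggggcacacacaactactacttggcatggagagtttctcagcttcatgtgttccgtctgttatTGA

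The other 3 belong to lincRNAs with a low share: JTB-DT (chr1:153977953-153978204 (+)), AC015912.3 (chr17:56914323-56914505 (+)) and CAHM (chr6:163413098-163413169 (-)). Both sets hold short runs. The high-share set shown spans 40 to 98 codons before the stop and the low-share set 23 to 83, so these lengths overlap. The runs shown do not stand for the 2 ends of the ranking. Longer runs were found in LINC01547 (218 codons) and MIRLET7BHG (219 codons) at the high end and LINC00938 (120 codons) at the low end.
JTB-DT: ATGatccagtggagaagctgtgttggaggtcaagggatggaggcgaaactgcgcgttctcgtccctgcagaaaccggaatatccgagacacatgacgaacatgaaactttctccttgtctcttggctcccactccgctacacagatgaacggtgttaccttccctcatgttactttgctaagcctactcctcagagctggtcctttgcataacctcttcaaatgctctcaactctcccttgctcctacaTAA
AC015912.3: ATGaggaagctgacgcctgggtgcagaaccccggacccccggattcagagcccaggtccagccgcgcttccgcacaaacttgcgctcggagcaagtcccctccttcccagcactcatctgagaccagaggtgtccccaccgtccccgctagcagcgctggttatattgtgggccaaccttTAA
CAHM: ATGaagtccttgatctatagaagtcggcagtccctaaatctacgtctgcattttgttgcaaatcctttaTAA

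Several members are host genes of microRNAs, small RNAs cut in the nucleus from the host transcript that guide silencing of mRNAs through their seed. The mature sequences of the hosts' best known microRNAs are shown from RefSeq (GRCh38.p14), with the seed, bases 2 to 8, in capitals. MIRLET7BHG holds let-7a (chr22:46112752-46112773 (+)) and let-7b (chr22:46113691-46113712 (+)), which share the seed GAGGUAG. MIR4435-2HG (chr2:111321061-111321082 (-)) and CYTOR (chr2:87629764-87629785 (+)) hold copies of the same microRNA, miR-4435. The others have a seed each: miR-9 in MIR9-3HG (chr15:89368032-89368054 (+)), miR-210 in MIR210HG (chr11:568112-568133 (-)) and miR-155 in MIR155HG (chr21:25573983-25574006 (+)).
hsa-let-7a-5p: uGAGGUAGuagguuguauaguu
hsa-let-7b-5p: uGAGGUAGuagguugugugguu
hsa-miR-4435: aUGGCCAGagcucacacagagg
hsa-miR-9-5p: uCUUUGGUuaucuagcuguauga
hsa-miR-210-3p: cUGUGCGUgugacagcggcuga
hsa-miR-155-5p: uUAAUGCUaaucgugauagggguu

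As a group the lincRNAs lay lower on polysomes than mRNAs, but the 2 distributions overlapped widely. The ratio is log2 of polysome CPM + 0.1 over input CPM + 0.1, so it understates low levels. Averaged over the 4 lysates, its median was -0.76 over the 96 lincRNAs, against -0.28 over 8850 autosomal protein-coding genes and -0.30 over all 9277 autosomal genes at the same input minimum. In single lysates the lincRNA median was -0.72 and -0.71 with the knockdown label and -0.74 and -0.83 with the control label, against -0.24, -0.28, -0.27 and -0.28 for protein-coding genes. The lincRNA median was thus the lower one in 4 of 4 lysates. A lincRNA stood at a median percentile of 29.5 among protein-coding genes. TMM scaling moved all ratios upward together, to medians of -0.51 for lincRNAs and -0.02 for protein-coding genes, so the sign of a ratio depends on the scaling and lincRNAs are read against protein-coding genes below.

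**Figure D1:**
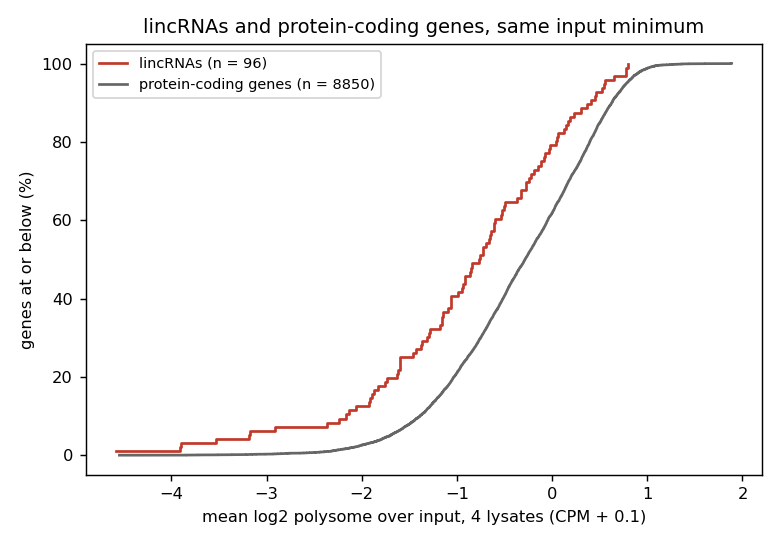
Share of genes (y axis, %) at or below each mean log2 polysome over input ratio (x axis, CPM + 0.1, mean of 4 lysates) for 96 lincRNAs (red) and 8850 protein-coding genes (grey) at the same input minimum. The lincRNA curve lies to the left, with medians of -0.76 and -0.28, and has a longer lower tail.

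Other noncoding classes of the same annotation took similar places. The median mean ratio was -0.87 for 39 genes of type processed transcript and -0.64 for 108 antisense genes, while 60 processed pseudogenes lay at -0.20, near the protein-coding median. Single genes help to read the scale: the nuclear-retained NEAT1 had a mean ratio of -3.57, the glycolytic enzyme GAPDH 0.82 and the actin gene ACTB 0.01. MALAT1, also nuclear-retained, set 1 library apart, at 4.86, 2.08, 12.1 and 270.6 CPM in the 4 polysome libraries against 27.0, 25.1, 31.5 and 31.2 CPM in the inputs. This library was polysome control 2. Leaving out its lysate gave a lincRNA median of -0.75, which does not show how far single lincRNAs moved in the ranking.

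The order of the lincRNAs was similar in the 4 lysates. Spearman's rho between lysates was 0.760 to 0.811 over the 96 lincRNAs, and 0.816 to 0.883 over protein-coding genes. These are correlations across genes, given as descriptions, and the same depth and gene lengths stand behind every point. The ratio varied more for lincRNAs, with a median SD over the 4 lysates of 0.45 against 0.24 for protein-coding genes. These sets shared the input minimum but were not matched for level, and the part of level in this difference was not tested. Of the 96, 8 had an SD over 1, mostly at the lower end where polysome counts were small.

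**Figure D2:**
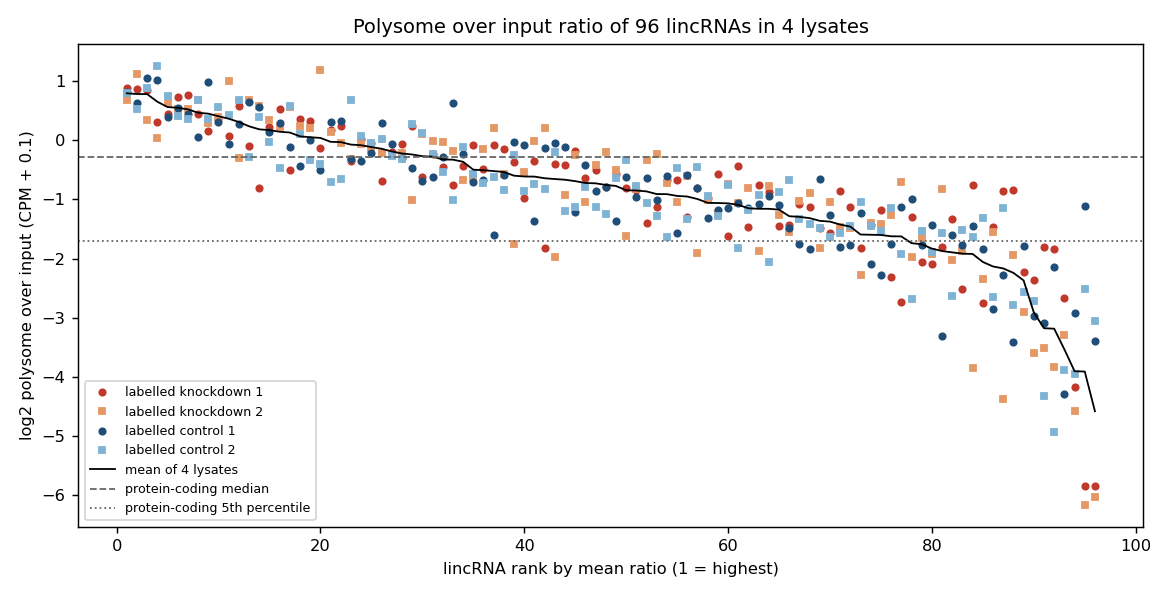
Log2 polysome over input ratio (y axis, CPM + 0.1) of each of 96 lincRNAs, ordered by their mean (x axis, rank 1 highest), with 1 point for each of 4 lysates and a black line for the mean. The dashed line is the protein-coding median and the dotted line the protein-coding 5th percentile of the mean ratio. The 14 lincRNAs above the median in all lysates lie within the first 27 ranks, and the spread of points widens to the right.

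The most ribosome-associated lincRNAs were taken as those above the protein-coding median in all 4 lysates. They were 14 of 96 lincRNAs, or 14.6%, against 37.7% of protein-coding genes. A further 12 were above it in 3 lysates, 11 in 2 and 10 in 1, and 49 (51.0%) were below it in all 4, against 36.8% of protein-coding genes and 37.3% of all autosomal genes. Before scaling, polysome CPM exceeded input CPM in all 4 lysates for 10 lincRNAs (10.4%), against 26.9% of protein-coding genes and 26.2% of all autosomal genes. At the low end, 6 lincRNAs, or 6.25%, lay below the protein-coding 5th percentile in all 4 lysates, against 0.983% of protein-coding genes. Since the ranking used these values, the shares describe the lincRNAs and test nothing.

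Leading the ranking was AP001505.1, a single-exon gene on chromosome 21 of GRCh38 (ENSG00000276529, chr21:44978832-44979274, + strand). It had 19.4 and 17.5 CPM in labelled knockdown polysomes and 24.4 and 22.4 CPM in labelled control polysomes, against 10.5, 10.9, 13.8 and 12.9 CPM in the matching inputs, a mean ratio of 0.79 ± 0.09 (SD, n = 4 lysates). Every polysome value lay above every input value, and the mean sat at percentile 95.2 of protein-coding genes. This SD, here and below, spans both labels, so it holds any gap between labels as well as the spread within a label. AP001505.1 starts 1843 bp downstream of the coding gene SLX9 on the same strand, and SLX9 itself had a ratio of 0.95. LINC01547, a spliced lincRNA, starts on the other side of SLX9, 97 bp from its start and on the opposite strand. LINC01547 had 17.9 and 15.6 CPM in labelled knockdown polysomes and 24.5 and 25.2 CPM in labelled control polysomes, against 14.5, 15.2, 12.1 and 10.5 CPM in the matching inputs (0.65 ± 0.58). Its polysome excess was larger in the control-labelled lysates. By mean ratio, SLX9 and its lincRNA neighbours on both sides all stood high on polysomes, although LINC01547 was at only 0.30 and 0.03 in the labelled knockdown lysates.

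LINC01963 (ENSG00000260804, chr2:216217045-216220192, + strand), an unspliced lincRNA of chromosome 2, had 20.8 and 22.7 CPM in labelled knockdown polysomes and 27.99 and 16.02 CPM in labelled control polysomes, against 11.4, 10.5, 18.1 and 11.1 CPM in the matching inputs (0.78 ± 0.26). Polysome exceeded input in 4 of 4 lysates, although control 1 was high in both fractions. FLJ20021 (ENSG00000254531, chr4:101347780-101348883, + strand), with 2 exons, had 19.1 and 19.03 CPM in labelled knockdown polysomes and 18.1 and 18.8 CPM in labelled control polysomes, against 10.6, 15.1, 8.74 and 10.1 CPM in the matching inputs (0.78 ± 0.31). Its polysome level was nearly the same in all 4 libraries, and the input level set its ratio. The start of FLJ20021 lies 498 bp from that of PPP3CA, the calcineurin catalytic subunit, which had a ratio of -1.19.

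AC092171.2 (ENSG00000230733, chr7:5475804-5479811, + strand) had 28.9 and 35.9 CPM in labelled knockdown polysomes and 29.2 and 36.9 CPM in labelled control polysomes, against 21.1, 23.1, 22.1 and 21.8 CPM in the matching inputs (0.56 ± 0.17). The groups did not overlap. AL035071.1 (ENSG00000260257, chr20:32856621-32858751, + strand) had 23.02 and 13.9 CPM in labelled knockdown polysomes and 28.2 and 18.9 CPM in labelled control polysomes, against 13.5, 9.69, 20.6 and 14.8 CPM in the matching inputs (0.52 ± 0.18). Within each lysate polysome exceeded input, but the fractions overlapped across lysates because the level itself varied.

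BAIAP2-DT, NUDT19-DT and LRRC8D-DT are divergent transcripts, named for the coding gene whose promoter region they share and from which they run the opposite way. BAIAP2-DT had 23.2 and 44.8 CPM in labelled knockdown polysomes and 20.9 and 25.8 CPM in labelled control polysomes, against 17.04, 27.99, 20.2 and 15.98 CPM in the matching inputs (0.46 ± 0.30). NUDT19-DT had 12.3 and 14.97 CPM in labelled knockdown polysomes and 16.03 and 12.3 CPM in labelled control polysomes, against 11.1, 12.2, 8.03 and 9.57 CPM in the matching inputs (0.45 ± 0.37). All 3 exceeded their inputs within every lysate, and for NUDT19-DT the 2 fractions also did not overlap, although its lowest polysome value and highest input value were close. LRRC8D-DT, close to the input minimum, had 7.38 and 8.48 CPM in labelled knockdown polysomes and 10.2 and 8.97 CPM in labelled control polysomes, against 5.74, 6.47, 8.22 and 6.02 CPM in the matching inputs (0.41 ± 0.11).

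AC005332.5 and AC005332.6 are neighbouring single-exon genes on chromosome 17 and both overlap a pseudogene of the LRRC37A family, LRRC37A16P, on the opposite strand. AC005332.5 had 8.03 and 13.5 CPM in labelled knockdown polysomes and 8.06 and 12.5 CPM in labelled control polysomes, against 7.59, 6.70, 8.38 and 9.21 CPM in the matching inputs (0.36 ± 0.47). AC005332.6 had 33.1 and 49.7 CPM in labelled knockdown polysomes and 44.6 and 46.99 CPM in labelled control polysomes, against 28.5, 39.01, 40.4 and 47.7 CPM in the matching inputs (0.17 ± 0.15). The strand setting of the counts was not given in the sources used here, so reads of the lincRNAs and of the pseudogene cannot be told apart. The last of the 12 highest, AL355001.2, had 17.1 and 9.56 CPM in labelled knockdown polysomes and 11.3 and 14.6 CPM in labelled control polysomes, against 11.5, 11.8, 9.28 and 9.12 CPM in the matching inputs (0.31 ± 0.44), and knockdown 2 alone put it below the protein-coding median.

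The border of the upper set was narrow. CYTOR and AP001063.1 were just inside, at percentiles of 50.6 and 52.0 among protein-coding genes in their lowest lysate. LINC00623 and AL355001.2 were just outside, at 49.8 and 48.7 in theirs, although both had higher mean ratios than CYTOR. LINC00623 belongs to a duplicated region of chromosome 1, so its count is uncertain.

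**Figure D3:**
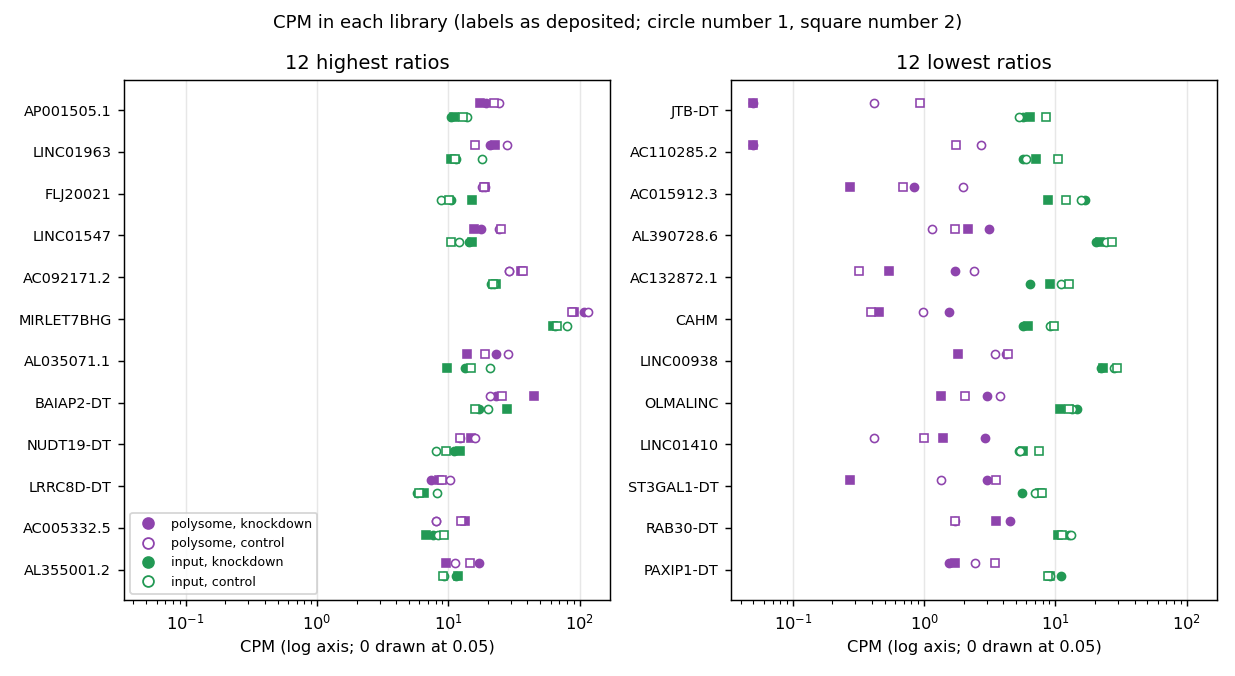
CPM (x axis, log scale, with 0 drawn at 0.05) of the 12 lincRNAs with the highest mean ratio (left) and the 12 with the lowest (right), in polysome (purple) and input (green) libraries, filled for labelled knockdown and open for labelled control, circles for number 1 and squares for number 2. In the left panel most polysome points lie to the right of the input points of the same gene, with exceptions such as AL355001.2 in knockdown 2 (9.56 against 11.8 CPM) and some overlap between lysates. In the right panel they lie to the left.

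At the other end stood JTB-DT (ENSG00000272654, chr1:153977743-153979160, + strand), a single-exon transcript divergent from JTB. It had 0 and 0 CPM in labelled knockdown polysomes and 0.416 and 0.931 CPM in labelled control polysomes, against 5.65, 6.45, 5.30 and 8.46 CPM in the matching inputs. Its polysome counts were 0 and 0 reads with the knockdown label and 16 and 38 reads with the control label. Against the limit that a count of 0 allows, taken as 3 counts a library, input was at least 72.4-fold and 47.6-fold higher than polysome in the 2 labelled knockdown lysates. The ratio was -3.39 and -3.05 in the labelled control lysates, so JTB-DT lay far below input in all 4. Its exon overlaps the coding gene AL358472.6 on the opposite strand.

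AC015912.3 (ENSG00000274213, chr17:56914186-56914533, + strand), divergent from TRIM25, had 0.831 and 0.271 CPM in labelled knockdown polysomes and 1.98 and 0.686 CPM in labelled control polysomes, against 16.7, 8.77, 15.5 and 12.04 CPM in the matching inputs (-3.90 ± 0.71). AL390728.6 (ENSG00000259865, chr1:247187281-247188526, - strand) had 3.12 and 2.17 CPM in labelled knockdown polysomes and 1.14 and 1.72 CPM in labelled control polysomes, against 20.2, 22.01, 24.3 and 26.8 CPM in the matching inputs (-3.53 ± 0.71). In both the lowest input value was more than 4 times the highest polysome value. AL390728.6 lay well above the input minimum in every input library.

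CAHM (ENSG00000270419, chr6:163413065-163413960, - strand), a transcript known for promoter methylation in colorectal cancer, is divergent from QKI, which encodes an RNA-binding protein. CAHM had 1.56 and 0.451 CPM in labelled knockdown polysomes and 0.988 and 0.392 CPM in labelled control polysomes, against 5.68, 6.15, 9.15 and 9.69 CPM in the matching inputs (-3.18 ± 1.05). AC132872.1 had 1.72 and 0.541 CPM in labelled knockdown polysomes and 2.42 and 0.319 CPM in labelled control polysomes, against 6.36, 9.04, 11.00 and 12.6 CPM in the matching inputs (-3.18 ± 1.46). Its ratio was -2.14 in control 1 and -4.93 in control 2, a wide gap within a label. LINC00938 had 4.23 and 1.80 CPM in labelled knockdown polysomes and 3.46 and 4.34 CPM in labelled control polysomes, against 22.1, 22.8, 27.7 and 29.2 CPM in the matching inputs (-2.91 ± 0.52), with no overlap between fractions. The low set was bordered by AC132872.1 and CAHM inside, at percentiles of 4.03 and 4.28 in their highest lysate, and by OLMALINC and MIR155HG outside, at 5.41 and 8.49.

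AC110285.2, next to last in the ranking, was kept out of the low set by control 1 alone, at percentile 18.0 of protein-coding genes. It was at percentiles of 0.02 and 0.08 in knockdown 1 and 2, and at 0.95 in control 2. AC110285.2 had 0 and 0 CPM in labelled knockdown polysomes and 2.70 and 1.74 CPM in labelled control polysomes, against 5.65, 7.05, 5.95 and 10.4 CPM in the matching inputs. Both labelled knockdown polysome libraries held 0 reads, against 104 and 71 reads in the labelled control polysomes. The remaining members among the 12 lowest were OLMALINC, first described in maturing oligodendrocytes (-2.37 ± 0.48), LINC01410 (-2.24 ± 1.11), ST3GAL1-DT (-2.17 ± 1.60), RAB30-DT (-2.13 ± 0.72) and PAXIP1-DT (-2.06 ± 0.62). ST3GAL1-DT had 3.01, 0.271, 1.35 and 3.53 CPM in polysomes against 5.55, 7.61, 6.96 and 7.92 CPM in inputs, and the second of these polysome values rests on 6 reads. RAB30-DT had 4.47, 3.52, 1.72 and 1.72 CPM in polysomes against 12.6, 10.5, 13.1 and 11.3 CPM in inputs, with the higher polysome values in the labelled knockdown lysates. Of the 12 highest and the 12 lowest by mean, 4 each were among the 12 highest or 12 lowest in every single lysate.

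The microRNA hosts spread over most of the ranking. MIRLET7BHG (ENSG00000197182, chr22:46053869-46113928, + strand) was the highest, with 107 and 90.2 CPM in labelled knockdown polysomes and 116 and 88.2 CPM in labelled control polysomes, against 64.8, 62.6, 80.1 and 66.7 CPM in the matching inputs (0.55 ± 0.13). The 2 fractions did not overlap, and at 2000 to 4473 polysome reads it was the best covered of the upper set. Its exons overlap PRR34 on the opposite strand and PRR34-AS1 on the same strand, so part of its reads may belong to those genes. CYTOR and MIR4435-2HG, copies of one another reported as cytoplasmic lincRNAs, followed near the protein-coding median. MIR4435-2HG had 32.3, 21.6, 16.97 and 15.97 CPM in polysomes against 25.2, 18.4, 22.9 and 14.9 CPM in inputs (0.07 ± 0.35). CYTOR had 19.3, 18.5, 12.6 and 9.34 CPM in polysomes against 22.03, 21.9, 13.1 and 11.2 CPM in inputs (-0.19 ± 0.09). Their sequences are nearly identical, so reads may be split between them and both counts are uncertain.

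MIR9-3HG, host of a microRNA of the nervous system, had 10.1, 2.03, 17.4 and 11.8 CPM in polysomes against 13.3, 8.26, 18.1 and 13.6 CPM in inputs (-0.66 ± 0.89). The low value in knockdown 2 sets it apart from the other 3 lysates, which ranked it 22 to 34. The host of a brain-enriched microRNA, MIR124-1HG, had a mean ratio of -0.61 ± 0.39. MIR210HG, whose microRNA is induced by low oxygen, had 15.6, 22.6, 13.9 and 9.53 CPM in polysomes against 25.1, 37.4, 21.2 and 29.9 CPM in inputs (-0.91 ± 0.49). MIR155HG, host of a microRNA of activated immune cells and of leukaemia, was the lowest, with 2.13, 2.89, 2.75 and 2.30 CPM in polysomes against 9.21, 9.28, 9.66 and 6.89 CPM in inputs (-1.76 ± 0.22). Its polysome and input values did not overlap, and all 4 lysates ranked it between 74 and 85. MUC20-OT1, which also holds a microRNA, stood at -1.59 ± 0.56 but overlaps MUC20 and 2 pseudogenes on the same strand. Over 7 lincRNAs outside chromosome 8 with a RefSeq microRNA inside, CYTOR and MUC20-OT1 among them, the median was -0.66. MIR124-1HG and PVT1 of chromosome 8, whose exons overlap microRNA genes on the same strand, are not among the 7.

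Lists of lincRNAs with a reported location or role held few members. Of 11 reported cytoplasmic lincRNAs 6 were members, with a median ratio of -0.65, and 1 of the 6 (CYTOR) was in the upper set. TP53TG1, first described as induced by p53, had a mean ratio of -0.24 ± 0.62, EPB41L4A-AS1 -1.06 ± 0.18, LINC00467 -1.15 ± 0.27 and EBLN3P -1.90 ± 0.57. EBLN3P had 10.6, 6.67, 9.20 and 4.17 CPM in polysomes against 26.9, 27.4, 27.96 and 26.3 CPM in inputs, so a reported cytoplasmic lincRNA can lie among the 15 lowest. LINC00467, for which a microprotein has been reported, was the single member of the microprotein list and lay below the protein-coding median in all lysates, with 9.48, 19.2, 9.12 and 9.12 CPM in polysomes against 26.4, 33.6, 20.4 and 20.7 CPM in inputs. PVT1, the neighbour of MYC and the single member of the nuclear list, stood at -0.77 ± 0.40.

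Of 20 blood or immune lincRNAs 4 were members, none in the upper set, with a median of -1.07. LINC00926 was among the most abundant members per length, at 79.3 input CPM per kb of exon. It had 153, 136, 226 and 198 CPM in polysomes against 239.5, 279, 302 and 344 CPM in inputs (-0.72 ± 0.26), below input in all lysates. CCDC26, a lincRNA from a region of chromosome 8 gained in some myeloid leukaemias, had 7.07, 4.38, 9.38 and 5.12 CPM in polysomes against 19.9, 15.6, 14.9 and 14.6 CPM in inputs (-1.36 ± 0.49). The others were PVT1 and MIR155HG, given above.

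The low set was made up of single-exon genes. All 6 lincRNAs of the low set have a single exon, against 7 of the 14 in the upper set and 38 of all 96. Over all 96, however, the number of exons had a Spearman's rho of only -0.02 with the ratio. Of the single-exon genes 18.4% were in the upper set, against 12.1% of the others, with median ratios of -0.88 and -0.74. Median exonic length was 1220 bases in the low set, 2696 in the upper set and 2469 in between. The longest open reading frame had a median of 67.5 codons in the low set and 108 in the upper set, but over all 96 its length had a Spearman's rho of only 0.10 with the ratio. GC content of the longest transcript had a rho of 0.28 with the ratio over lincRNAs, against 0.70 over protein-coding genes. Exonic length had -0.08 against -0.16. The points share libraries and base composition, and these values are descriptions across genes. No member matched a gene with a RefSeq protein (0 of 96). Of the 66 with a RefSeq gene type, 64 were typed as lncRNA and 2, RNASE2CP and EBLN3P, as pseudogenes.

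Many of these genes share a promoter region with a coding gene, which lets each lincRNA be set against the mRNA next to it. Of the 96, 33 start within 1000 bp of a coding gene's start on the opposite strand, and 28 of those coding genes met the input minimum. The lincRNA had the lower ratio in 16 pairs and the higher in 12, with medians of -0.88 for the lincRNAs and -0.60 for their partners. Across the 28 pairs Spearman's rho between partners was -0.05 (a description across genes of the same libraries). The widest gaps, chosen after their values were seen, ran both ways. NUDT19-DT was at 0.45 against -1.34 for NUDT19, and FLJ20021 at 0.78 against -1.19 for PPP3CA. In the other direction, AC015912.3 was at -3.90 against -0.01 for TRIM25, JTB-DT at -4.58 against -0.97 for JTB, and CAHM at -3.18 against -0.80 for QKI. The JTB-DT value depends on the 0.1 CPM added, since polysome counts were 0 in 2 lysates, and was -2.52 with 1 CPM added. BISPR, at -1.29 against 0.44 for BST2, and PSMB8-AS1, at -0.85 against 0.62 for PSMB8, also lay far below their interferon-induced neighbours. BISPR and PSMB8-AS1 overlap coding genes in their exons, so part of their reads may be those of mRNAs.

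**Figure D4:**
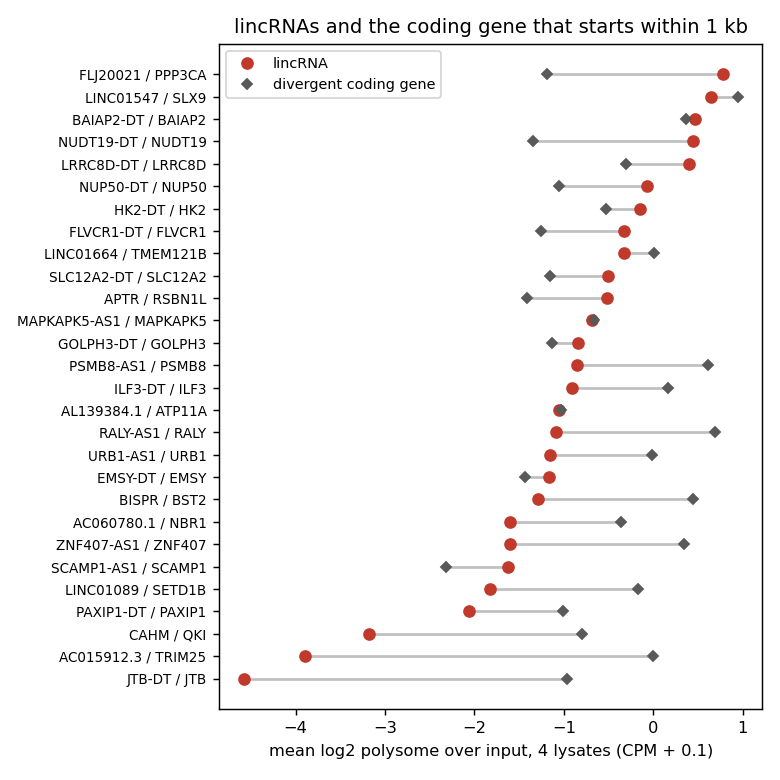
Mean log2 polysome over input ratio (x axis, CPM + 0.1, 4 lysates) of 28 lincRNAs (red circles) and of the coding gene that starts within 1 kb on the opposite strand (grey diamonds), ordered by the lincRNA. The lincRNA lies to the left of its partner in 16 pairs and to the right in 12.

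The counts of lincRNAs that share exons with other genes are the less certain ones. The 33 lincRNAs whose exons overlap another gene had a median ratio of -0.61, and the 63 with none had -0.91. Of the upper set 10 of 14 were free of such overlap, and of the low set 5 of 6. The input minimum itself was met narrowly by AC145207.5, AC060766.4 and MUC20-OT1, at 5.08, 5.13 and 5.15 CPM in their lowest input, with ratios of -0.03, -0.94 and -1.59. It was missed narrowly by AC022007.1, AC078846.1 and LINC00900, at 4.88, 4.75 and 4.73 CPM, with ratios of -1.54, -2.68 and -0.63.

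The comparison of labels asks whether the lincRNAs changed with the knockdown label, in abundance or on polysomes. It did not choose the members, so it was tested, with edgeR's quasi-likelihood test and Benjamini-Hochberg adjustment over 16503 genes, all 96 lincRNAs among them. Levels in these comparisons are CPM after TMM scaling. In bulk RNA, fewer cells of a type and less RNA per cell cannot be told apart.

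In input RNA no lincRNA was called (0 of 96, against 0% of all genes), and 4 lincRNAs (4.17%) had an unadjusted p under 0.05 in edgeR, against 4.51% of all genes. DESeq2 called none of the 11 lincRNAs for which it gave an adjusted p, against 65 of 5305 genes. CYTOR had 20.1 and 20.2 CPM in labelled knockdown and 12.01 and 10.1 CPM in labelled control. Its labels did not overlap, but the difference did not pass (log2 fold change 0.87, SE 0.23, adjusted p = 0.781, edgeR). LINC02611 had 23.4 and 33.6 CPM in labelled knockdown and 13.5 and 15.6 CPM in labelled control (log2 fold change 0.97, SE 0.42, adjusted p = 1, edgeR). Among lincRNAs with a mean of at least 10 CPM under either label, the other largest differences were HK2-DT at 0.62 and LINC00467 at 0.56, and on the lower side AL035071.1 and AC132872.1 at -0.60 each, MIR9-3HG at -0.54 and LINC01963 at -0.41 (log2, each with adjusted p = 1, edgeR). The libraries of the labels were separated for 17 lincRNAs on the higher and 23 on the lower side, 41.7% together, against 41.4% of all genes (21.1% higher, 20.3% lower).

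In polysome RNA 2 lincRNAs were called, both lower with the knockdown label, AC110285.2 and JTB-DT, or 2.08% of 96, against 0.879% of all genes called in either direction, 0.248% called higher and 0.630% called lower. AC110285.2 had 0 and 0 reads in labelled knockdown polysomes and 104 and 71 reads in labelled control polysomes, at least 44.6-fold lower when the limit of 3 counts is taken over the group (adjusted p = 0.0258, edgeR). JTB-DT had 0 and 0 reads in labelled knockdown polysomes and 16 and 38 reads in labelled control polysomes, at least 13.8-fold lower (adjusted p = 0.0380, edgeR). Among the 9277 autosomal genes at the input minimum, these were the only 2 with 0 reads in both labelled knockdown polysome libraries, and 0 genes had none in both labelled control polysome libraries. In input both were present in every library at over 5 CPM before scaling, with log2 fold changes of -0.35 (SE 0.49) for AC110285.2 and -0.17 (SE 0.57) for JTB-DT, each with adjusted p = 1 (edgeR).

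The calls were lost when some single libraries were left out, with adjusted p over the alternatives from 4.8e-11 to 0.120 for AC110285.2 and from 2.1e-05 to 0.125 for JTB-DT (edgeR and DESeq2). Without polysome control 2, the library with high MALAT1, neither was called (edgeR), and without input knockdown 2 neither was (adjusted p = 0.0531 and 0.0863, edgeR). Leaving out polysome knockdown 2, input knockdown 1, input control 1 or input control 2 also ended the call of JTB-DT (adjusted p = 0.0519 to 0.0786, edgeR), while AC110285.2 kept its call in 6 of 8 such fits. Without polysome control 2 or input knockdown 2 few genes of any kind were called, 0 and 5 against 145 with all libraries. The fitted log2 changes, which are no bounds for genes at 0, stayed about as large, at -9.73 and -9.35 for AC110285.2 (-9.47 with all libraries) and -7.04 and -7.64 for JTB-DT (-7.76). The nuclear RNA NEAT1 was also lower in polysomes with the knockdown label, at 34.5 and 30.7 CPM before scaling, against 59.5 and 75.7 CPM with the control label. Its part in these differences was not tested.

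Short of the threshold, LINC01127 had 12.7 and 16.4 CPM in labelled knockdown and 4.75 and 6.75 CPM in labelled control in polysomes (log2 fold change 1.34, SE 0.28, adjusted p = 0.0587, edgeR), with no overlap of the labels. DESeq2 called it, and its adjusted p ranged from 0.00182 to 0.181 over the alternatives tried. LINC00926 had 164 and 145 CPM in labelled knockdown and 252 and 223 CPM in labelled control (log2 fold change -0.62, SE 0.12, adjusted p = 0.0532, edgeR), again with no overlap. Its adjusted p ranged from 0.00119 to 0.170 over the alternatives. MAPKAPK5-AS1 had 33.9 and 39.6 CPM in labelled knockdown and 23.3 and 22.9 CPM in labelled control (log2 fold change 0.67, SE 0.18, adjusted p = 0.0973, edgeR, and 0.0116 to 0.223 over the alternatives). It was chosen after its values were seen, and its exons overlap MAPKAPK5 on the opposite strand.

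The other large polysome differences at the same 10 CPM limit did not pass with edgeR. LINC02611 was at 1.06, AL118558.3 at 0.85 and APTR at 0.84 on the log2 scale, and MIR9-3HG at -1.31, AC005261.1 at -0.94, LINC02987 at -0.74 and LINC01547 at -0.64 (adjusted p = 0.157 to 0.368, edgeR). LINC02611 rested on knockdown 2, at 10.3 and 30.8 CPM in labelled knockdown and 10.4 and 9.21 CPM in labelled control polysomes. Of the 96, 18 (18.8%) had an unadjusted p under 0.05 in edgeR, against 18.1% of all genes, and the labels were separated for 17 on the higher and 16 on the lower side, 34.4% together, against 39.0% (15.4% higher, 23.6% lower). The lincRNAs' share of differences was thus close to that of all genes in both fractions.

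**Figure D5:**
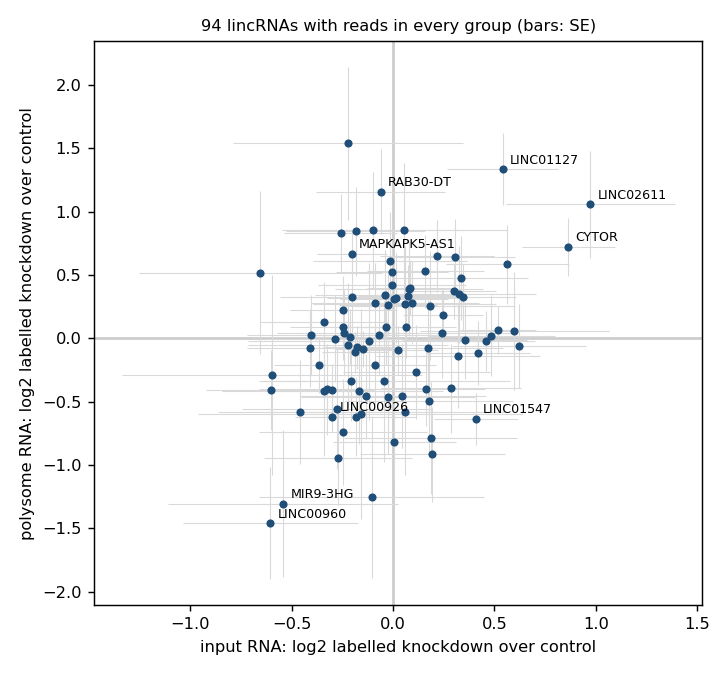
Log2 fold change, labelled knockdown over labelled control, in polysome RNA (y axis) against input RNA (x axis) for the 94 lincRNAs with reads in every group, with bars of 1 SE from edgeR. AC110285.2 and JTB-DT are left off, since they had 0 reads in labelled knockdown polysomes. Most points lie within 1 of 0 on both axes, and CYTOR and LINC02611 are higher on both.

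The change in polysome association with the label was fitted as an interaction term, the label's effect in polysome RNA minus that in input RNA. No lincRNA was called (0 of 96, against 0% of all genes), and 6 (6.25%) had an unadjusted p under 0.05 in edgeR, against 6.34% of all genes. The smallest adjusted p was 0.756 (edgeR). DESeq2 called 1 of 96, AC110285.2, against 4 of 14903 genes. LINC01547, among the 12 highest ratios, was lower on polysomes and higher in input with the knockdown label, a difference of -1.04 (SE 0.29, adjusted p = 0.756, edgeR). At the same limit, RAB30-DT was at 1.22 (SE 0.46), AL390728.6 at 1.09 (SE 0.42), APTR at 1.03 (SE 0.49) and AL118558.3 at 0.95 (SE 0.64), and on the lower side AC015912.3 at -1.15 (SE 0.84), GOLPH3-DT at -0.83 (SE 0.43) and MIR9-3HG at -0.76 (SE 0.80), with adjusted p from 0.766 to 0.903 in edgeR. With the lysate as a replicate block, which pairs each polysome library with its own input, AC110285.2 was called lower with edgeR (adjusted p = 0.0234, in a range of 1.8e-06 to 1 over the alternatives), against 0.0545% of all genes called. With that block 9 of 96 lincRNAs had an unadjusted p under 0.05 in edgeR, against 8.53% of all genes.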

How the data were processed

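The authors deposited a raw count per gene and library. Per the submitters' processing notes they used Trimmomatic 0.38, HTSeq 0.11.2, Bowtie2 and GRCh38. The Bowtie2 version, annotation release, read layout and strand setting were not given in the sources used here. Since Bowtie2 aligns without splicing, junction reads can be lost or misplaced. Lines that name no gene held 13.2% to 15.0% of reads and stayed out of library sizes and tests. Of 58395 identifiers 58275 were in GENCODE v29, which gave gene types, positions and transcripts. Symbols are current ones.

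Polysome over input ratios were computed from CPM of the deposited counts, with 0.1 CPM added to both, within each lysate. Labels were compared with edgeR 4.0.16 (R 4.3.3), by its quasi-likelihood F test over all 8 libraries in a single model of the 4 groups, after TMM and filterByExpr. P-values were adjusted by Benjamini-Hochberg over all genes, with calls at an adjusted p under 0.05. DESeq2 1.42.0 served as an alternative. The edgeR step was tested on simulated data. The 2 libraries of a group differed by a chi-square of 23.6 to 51.4 per degree of freedom, more than counting error alone gives. Each library was counted as a sample, but this spread does not show that the lysates were grown or infected separately. FBL also differed between the 2 libraries of every group. The p-values thus rest on a spread that may be partly technical.

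The members and lists were chosen with earlier results of these data known. Named were the 12 highest and 12 lowest ratios, listed lincRNAs (microRNA hosts, reported cytoplasmic, nuclear, microprotein and blood or immune lincRNAs), those called, the 4 largest differences each way at a mean of at least 10 CPM in a group, and those at the edges of the minimum. Input and polysome libraries of a lysate come from the same supernatant, per the labels' protocols, and their deviations from the group means correlated at 0.368 (labelled knockdown) and 0.319 (labelled control) over 8159 genes. Across labels the sample titles give libraries a shared number and no common source, although FBL levels and other deviations also went with the number.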

Additional observations from a re-analysis of the deposited data

How the results depend on the processing

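Among the 96 lincRNAs, no call was made in input RNA under any alternative. In polysome RNA the 2 calls became 8 with no filter on low counts, 7 with DESeq2, 5 (AC110285.2, JTB-DT, LINC01127, LINC00926 and MAPKAPK5-AS1) with the library number as a replicate block, and 0 to 13 when single libraries were left out: 0 without polysome control 2 or input knockdown 2, and 13 without polysome knockdown 1. They remained 2 in number under both other normalizations. Calls over all genes moved too, from 145 of 16503 to 1117 of 22560 with no filter and 1203 of 15863 with DESeq2. They also moved when single libraries were left out, so these counts are no result about the lincRNAs alone. For the difference between fractions the 0 calls became 2 with no filter, 1 with DESeq2, 1 with the lysate as a replicate block, and 0 to 1 without single libraries. Over all genes the difference was called for 55 of 22560 with no filter, 4 of 14903 with DESeq2 and 9 of 16503 with the lysate block. Where one library was left out, the lone library of its group was assumed to vary like the other groups. Same-numbered libraries of the 2 labels correlated at 0.482 in input and 0.204 in polysome RNA, and FBL split by number in every group, at 499 and 498 CPM (number 1) against 165 and 163 CPM (number 2) in polysome RNA. What the number stands for is not in the labels, so the block was kept as an alternative. It called 1053 genes of all in polysome RNA, against 145 without it. Log2 changes were followed over the alternatives for a few lincRNAs only, such as CYTOR, LINC00926, LINC01127 and JTB-DT, mostly ones with large changes in these data. Large changes are unlikely to reverse, so the counts do not stand for all lincRNAs named above. Of these log2 changes, 179 kept their direction and side of the threshold, 18 passed it newly, 8 lost it and 0 reversed. The cause was not tested for any of these, except that leaving out a library leaves fewer samples.

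The 14 lincRNAs above the protein-coding median became 26 of 185 at an input minimum of 2 CPM and 7 of 49 at 10 CPM, which are 14.1% and 14.3%. The 6 below the 5th percentile became 10 and 3. The median ratio of -0.76 became -0.51 after TMM (-0.02 for protein-coding genes), -0.91 at a minimum of 2 CPM, -0.91 without lincRNAs that overlap another gene, and -0.85 to -0.75 without single lysates. A larger number added before the log brought JTB-DT to -2.52 and AC015912.3 to -2.91 at 1 CPM, both still among the lowest. Depth limits the low end, where polysome values rest on 0 to 38 reads for JTB-DT, and the limits from a count of 0 cover counting error only.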
